A study of Mus musculus with 6 samples.

Results

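The gamma-delta T cell receptor genes described here are 10 of the 55450 genes in the count matrix: the delta constant gene Trdc, the delta variable segment Trdv4, the gamma constant genes Tcrg-C1, Tcrg-C2, Tcrg-C3 and Tcrg-C4, and the gamma variable segments Trgv2, Tcrg-V1, Tcrg-V4 and Tcrg-V7. They were chosen by symbol, and all 10 symbols were found. Their RNA was measured by bulk sequencing in 6 libraries of lymphocytes that were sorted from the mammary glands of mice in late pregnancy (E18.5). In 3 libraries the cells were CD8 beta+ T cells, and in the other 3 they were DN (double negative) NK1.1+ cells, called lymphocytes in one label and T cells in another. Which 2 markers DN refers to is not stated in the labels, nor is the strain or genotype of the mice. No treatment is given for either group. Since the labels do not tie the libraries of a group to different mice, each p-value here rests on a spread between samples that may be technical.

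T cells carry an antigen receptor made of an alpha and a beta chain or of a gamma and a delta chain. Either is held at the surface with CD3 proteins. Each chain is built from a variable (V) segment joined through a short J segment to a constant (C) gene. The mouse gamma locus holds several units in which V segments precede one C gene, whereas the delta genes lie within the alpha locus and use a single C gene. Gamma-delta T cells are common in epithelia, and different tissues are known for different V segments. Gamma transcripts are also known from alpha-beta T cells that rearranged a gamma gene during development, and transcripts of the constant genes are known from lymphocytes without a gamma-delta receptor.

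The sequences of the gamma constant genes are shown first because they bear on how well their counts can be told apart. The exon between the first and the last shared coding parts, which encodes part of the connecting stretch outside the membrane, differs between the 4 genes. In the following lines capitals mark a run of 15 bases of Tcrg-C1 that is absent from Tcrg-C2. All are printed 5′ to 3′ on the gene's own strand, from the transcripts of GENCODE M21, an annotation of mm10. They lie at chr13:19215864-19215908 on the plus strand (Tcrg-C1, exon 2), chr13:19305769-19305798 on the minus strand (Tcrg-C2, exon 2), chr13:19262644-19262687 on the plus strand (Tcrg-C3, exon 2), and chr13:19349536-19349589 and chr13:19350330-19350374 on the plus strand (Tcrg-C4, exons 2 and 3).
Tcrg-C1 exon 2: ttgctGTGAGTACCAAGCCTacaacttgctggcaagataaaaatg
Tcrg-C2 exon 2: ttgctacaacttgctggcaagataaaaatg
Tcrg-C3 exon 2: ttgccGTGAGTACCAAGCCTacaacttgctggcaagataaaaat
Tcrg-C4 exon 2: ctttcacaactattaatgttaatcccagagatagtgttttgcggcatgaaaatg
Tcrg-C4 exon 3: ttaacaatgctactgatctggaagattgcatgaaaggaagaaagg
Tcrg-C1 and Tcrg-C3 both hold the run in capitals. Apart from it, Tcrg-C1, Tcrg-C2 and Tcrg-C3 share most of this exon, while Tcrg-C4 has a pair of exons there with another sequence. The first exon, of 330 bases in each gene, was 97.3% identical between Tcrg-C1 and Tcrg-C2, 96.1% between Tcrg-C1 and Tcrg-C3 and 96.7% between Tcrg-C2 and Tcrg-C3. Identity of Tcrg-C4 to the others lay between 81.2% and 82.1%. Of all runs of 50 bases, 34.2% of those in Tcrg-C1, 25.4% in Tcrg-C2 and 36.2% in Tcrg-C3 also occurred in another of these 3 genes, and 0% of those in Tcrg-C4 did. The deposited values of Tcrg-C1, Tcrg-C2 and Tcrg-C3 held fractions in 4, 3 and 4 of the 6 libraries, and those of Tcrg-C4 in 0. How reads were divided among the first 3 genes is therefore uncertain, and this does not touch Tcrg-C4.

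The 3′ ends of the V segments are shown because that is where a segment is joined in the receptor. Capitals mark the TGT codon of the conserved cysteine that follows TACTAC. The last 30 bases of exon 2 lie at chr13:19178463-19178492 (Tcrg-V7, plus strand), chr13:19185477-19185506 (Tcrg-V4, plus), chr13:19336573-19336602 (Trgv2, minus), chr13:19340425-19340454 (Tcrg-V1, plus) and chr14:54075486-54075515 (Trdv4, plus).
Tcrg-V7: tgctctgtactacTGTgcctcctgggctgg
Tcrg-V4: agctatctactacTGTtcctacggctaaag
Trgv2: agccacctactacTGTgcagtctggatgag
Tcrg-V1: agccacctactacTGTgcagtctggataaa
Trdv4: gctggtacgtactacTGTgggtcagatatc
Trgv2 and Tcrg-V1 differ at 2 of these 30 bases, and the other pairs of gamma segments at 11 to 13. Over their whole transcripts, 7.01% of the 50-base runs of Trgv2 and 24.6% of those of Tcrg-V1 also occur in another gamma V segment, against 0% for Tcrg-V4 and Tcrg-V7. Counts of Trgv2 and Tcrg-V1 held no fractions, so how shared reads were counted is not visible in them.

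The libraries held 7961360 to 14367299 counts, so that 1 count was worth 0.0722 to 0.130 CPM, the count scaled to library size. The genes of the sort followed the labels: mean Cd8b1 was 949 CPM in CD8 beta+ and 2.57 CPM in DN NK1.1+ libraries, and mean Klrb1c, which encodes NK1.1, was 37.1 and 639 CPM. Cd4 lay at 2.15 and 1.36 CPM. Markers of natural killer (NK) cells and other innate lymphocytes moved with the groups, and 14 of 15 were higher in DN NK1.1+ libraries. Eomes, the other, had means of 173 and 190 CPM (CD8 beta+ first) and was not called (edgeR adjusted p = 0.392). Over all 15 the summed level was 727 to 921 CPM against 4192 to 4290 CPM. Ncr1, a defining receptor of NK cells, had 4 to 5 counts in each CD8 beta+ library and 2924 to 3619 in each DN NK1.1+ library, and Khdc1a was at 0 in all 3 CD8 beta+ libraries. Of the 15 innate markers 5, Ncr1 and Khdc1a among them, passed the filter on low counts through the DN NK1.1+ libraries alone. For these the filter favoured a higher level there. Myeloid markers summed to 170 to 262 CPM against 364 to 429 CPM, and 2 of 6 tested were higher. These were Itgax (means 113 and 269 CPM) and Csf1r (15.3 and 28.3 CPM), and the other 4 overlapped between the groups. B cell markers summed to 24.3 to 57.9 CPM against 9.48 to 26.3 CPM (1 of 6 was lower). Over all tested genes 7.84% were called higher and 5.99% lower. In bulk RNA a difference in the share of cells that hold a transcript and a difference in RNA per cell cannot be told apart, and the part of these other cell types in the results that follow was not tested.

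Of the 10 receptor genes, 8 rose and 0 fell in DN NK1.1+ against CD8 beta+ libraries. These calls use an adjusted p under 0.05 in the quasi-likelihood test of edgeR, adjusted by Benjamini-Hochberg over all 13171 genes tested, of which 7.84% rose. Without adjustment, 0 of the 10 were lower at p under 0.05, and DESeq2 and limma-voom also called 0 lower. For 9 of the 10 genes every DN NK1.1+ library lay above every CD8 beta+ library, as did 16.0% of all tested genes. The median log2 fold change over the 10 genes was 2.34, and over all tested genes it was -0.00330. Of the 10 genes, 8 would also have passed the filter on low counts from the CD8 beta+ libraries alone. Trdv4 and Tcrg-V1 passed it through the DN NK1.1+ libraries alone, so the filter favoured a higher level there. Their place among the 8 called genes and the 9 without overlap is therefore no separate support.

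**Figure D1:**
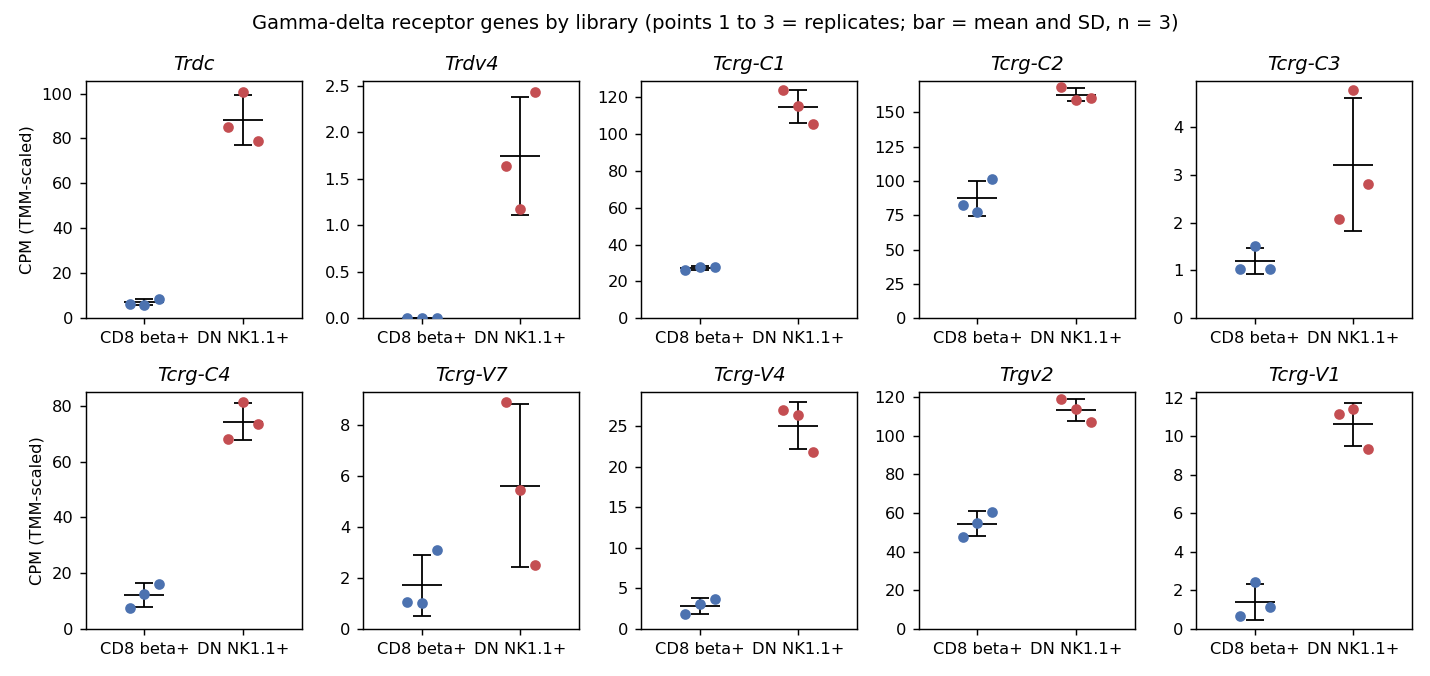
Each panel plots one gene's CPM (vertical axis, scaled by TMM factors) in the 3 CD8 beta+ libraries (blue) and the 3 DN NK1.1+ libraries (red), with the mean and SD as bars. The groups are apart in 9 panels, and in the Tcrg-V7 panel the lowest DN NK1.1+ library, at 2.50 CPM, lies under the highest CD8 beta+ library, at 3.09 CPM.

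Trdc encodes the constant region of the delta chain and is needed for every gamma-delta receptor. It lies at chr14:54142851-54148868 on the plus strand and has 4 exons. Its level was 6.50, 6.07 and 8.55 CPM in CD8 beta+ libraries 1 to 3 and 85.2, 101 and 79.0 CPM in DN NK1.1+ libraries 1 to 3. The DN NK1.1+ values were all far above the CD8 beta+ values, which were low but came from 50 to 84 counts per library. The mean rose from 7.04 ± 1.32 to 88.3 ± 11.2 CPM (SD, n = 3 each), a 12.6-fold difference (log2 fold change 3.65, SE 0.174, edgeR adjusted p = 1.35e-09). The last exon of Trdc overlaps the segment Trdv5 on the other strand by 207 bases, and since the use of strand in counting is not given in the sources used here, their reads in that stretch cannot be told apart. Trdv5 itself had 0, 0 and 1 counts in CD8 beta+ libraries and 13, 15 and 8 in DN NK1.1+ libraries. Of the runs of 50 bases of Trdc, 6.68% also occurred in another gene on either strand, with 4.14% in Trdv5. The deposited values of Trdc held fractions in 2 of the 6 libraries.

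Trdv4 is the segment of the V-delta-1 chain, known from the invariant gamma-delta T cells that colonise skin and mucosa around birth. It lies upstream of Trdc, at chr14:54074905-54075515 on the plus strand. It had 0 counts in each of the 3 CD8 beta+ libraries and 19, 14 and 32 counts in the DN NK1.1+ libraries, or 1.64, 1.17 and 2.43 CPM. The groups did not overlap, and the level was low in both. Against a floor of 3 counts over the CD8 beta+ group it was at least 18.4-fold higher in DN NK1.1+ libraries (edgeR adjusted p = 0.00567). Trdv4 passed the filter on low counts through the DN NK1.1+ libraries alone. The filter thus favoured a higher level there, and the p-value is no separate support. Leaving out 1 DN NK1.1+ library at a time gave bounds of 14.6-fold to 21.4-fold. Leaving out a CD8 beta+ library raises the floor itself, and the bound was then 13.9-fold, 10.3-fold and 12.7-fold without library 1, 2 and 3.

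Other delta segments were counted only in small numbers. Trdv2-2 had 1, 5 and 2 counts in CD8 beta+ libraries and 25, 10 and 19 in DN NK1.1+ libraries, again without overlap, but it did not pass the filter on low counts and was not tested. Trdv1 went from 3, 16 and 43 counts to 0, 15 and 8, with overlapping groups. The summed level of the 6 Trdv segments was 2.56 ± 1.88 CPM in CD8 beta+ and 4.84 ± 0.286 CPM in DN NK1.1+ libraries (SD, n = 3 each), and the groups overlapped (two-sided exact permutation p = 0.2, where 3 against 3 cannot go below 0.1). Within that sum, Trdv4 took 0% in the CD8 beta+ libraries and 33.3%, 25.9% and 47.8% in the DN NK1.1+ libraries. Trdv3, Trdd1, Trdd2, Trdj1 and Trdj2 had 0 counts in all 6 libraries.

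The gamma constant genes encode the part of the gamma chain that anchors it in the membrane. Their summed level was 117, 119 and 147 CPM in CD8 beta+ libraries and 362, 360 and 342 CPM in DN NK1.1+ libraries. The groups were well apart, and the CD8 beta+ libraries also held a clear level. The log2 ratio of the sums was 1.48, and the exact two-sided permutation test gave its smallest possible p, 0.1. Among the 4 genes, 3 rose and Tcrg-C3 did not pass the test.

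Tcrg-C1, at chr13:19214103-19217024 on the plus strand, is the constant gene of the unit that holds Tcrg-V4 to Tcrg-V7. Its level was 26.0, 27.8 and 27.8 CPM in CD8 beta+ libraries and 124, 115 and 106 CPM in DN NK1.1+ libraries. All 3 DN NK1.1+ libraries lay well above the narrow CD8 beta+ range. It rose from 27.2 ± 1.05 to 115 ± 9.03 CPM (SD, n = 3 each; log2 fold change 2.08, SE 0.118, edgeR adjusted p = 9.78e-09).

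Tcrg-C2, at chr13:19304649-19307551 on the minus strand, is the constant gene of the unit that holds Trgv2. Its level was 82.7, 77.5 and 101 CPM in CD8 beta+ libraries and 168, 159 and 161 CPM in DN NK1.1+ libraries. The groups did not overlap, and the CD8 beta+ libraries held a high level too. It rose from 87.2 ± 12.6 to 163 ± 4.74 CPM (SD, n = 3 each; log2 fold change 0.90, SE 0.112, edgeR adjusted p = 4.34e-05).

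Tcrg-C4, the constant gene whose counts are not shared with the others, lies at chr13:19344558-19352756 on the plus strand. Its level was 7.67, 12.4 and 16.3 CPM in CD8 beta+ libraries and 68.3, 81.4 and 73.4 CPM in DN NK1.1+ libraries. It showed the largest fold change of the constant gamma genes, with the groups far apart. The mean rose from 12.1 ± 4.31 to 74.3 ± 6.60 CPM (SD, n = 3 each; log2 fold change 2.61, SE 0.216, edgeR adjusted p = 2.55e-06).

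Tcrg-C3, at chr13:19260884-19263528 on the plus strand, was close to the limit of detection. Its level was 1.04, 1.52 and 1.03 CPM in CD8 beta+ libraries and 2.07, 4.78 and 2.81 CPM in DN NK1.1+ libraries. The groups did not overlap, but the DN NK1.1+ values were spread. The log2 fold change of 1.41 (SE 0.610) had an unadjusted p of 0.0361 and an adjusted p of 0.163 in edgeR's test, so it was not called.

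**Figure D2:**
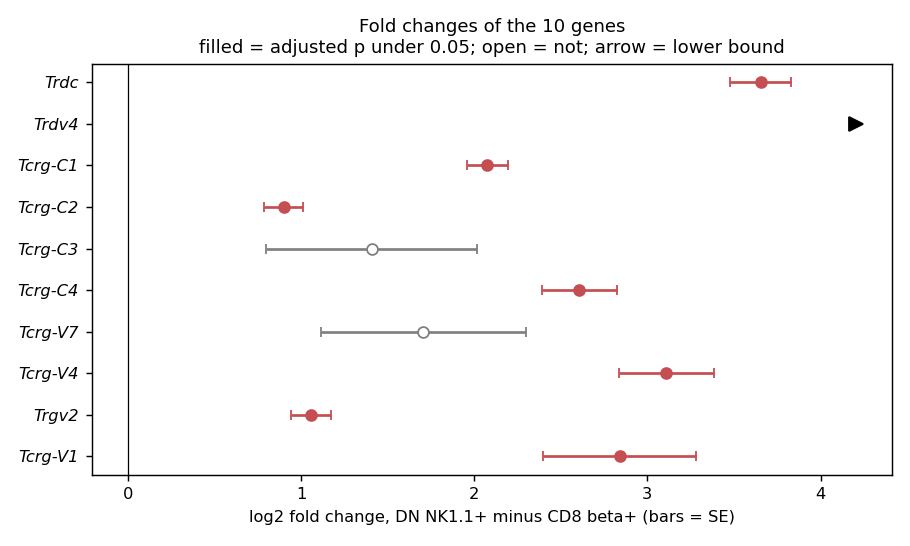
Points give the log2 fold change of each gene in DN NK1.1+ against CD8 beta+ libraries (horizontal axis) with its SE as bars. Filled points passed the adjusted p threshold, open points (Tcrg-C3 and Tcrg-V7) did not, and the arrow at Trdv4 is the lower bound of at least 18.4-fold. Tcrg-C2 and Trgv2, at 0.90 and 1.06, have the smallest values of the called genes.

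The V segments carry the part of the gamma chain that meets antigen. Over all 7 gamma V segments in the matrix the summed level was 52.0, 64.9 and 71.4 CPM in CD8 beta+ libraries and 168, 162 and 144 CPM in DN NK1.1+ libraries. The groups did not overlap, with a log2 ratio of 1.34 and an exact two-sided permutation p of 0.1, the smallest possible. Of the 5 segments that passed the filter on low counts, 3 rose and 0 fell. Tcrg-V1, among those that rose, passed it through the DN NK1.1+ libraries alone.

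Trgv2 lies at chr13:19336573-19337167 on the minus strand, the strand of Tcrg-C2. Its level was 47.8, 55.0 and 60.6 CPM in CD8 beta+ libraries and 119, 114 and 107 CPM in DN NK1.1+ libraries. The groups did not overlap, and it had more counts than any other gamma V segment in each library, also per kb of exon. The mean rose from 54.5 ± 6.42 to 113 ± 5.83 CPM (SD, n = 3 each; log2 fold change 1.06, SE 0.115, edgeR adjusted p = 1.19e-05).

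Tcrg-V4 is a segment of peripheral gamma-delta T cells, among them cells that make interleukin-17, and lies at chr13:19184974-19185506 on the plus strand. Its level was 1.82, 3.03 and 3.71 CPM in CD8 beta+ libraries and 27.0, 26.4 and 21.8 CPM in DN NK1.1+ libraries. Every DN NK1.1+ library was far above every CD8 beta+ library. The mean rose from 2.85 ± 0.956 to 25.0 ± 2.86 CPM (SD, n = 3 each; log2 fold change 3.11, SE 0.273, edgeR adjusted p = 1.27e-06).

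Tcrg-V1, the other main segment of gamma-delta T cells in spleen and lymph nodes, lies at chr13:19339989-19340454 on the plus strand. Its level was 0.650, 2.46 and 1.13 CPM in CD8 beta+ libraries and 11.1, 11.4 and 9.33 CPM in DN NK1.1+ libraries. The DN NK1.1+ values were close together, while CD8 beta+ library 2 stood above the others of its group. The mean rose from 1.41 ± 0.935 to 10.6 ± 1.12 CPM (SD, n = 3 each; log2 fold change 2.84, SE 0.442, edgeR adjusted p = 3.57e-04). Tcrg-V1 passed the filter on low counts through the DN NK1.1+ libraries alone. The filter thus favoured a higher level there, and the p-value does not allow for that. Without CD8 beta+ library 2 the log2 fold change was 3.53, and without CD8 beta+ library 1 it was 2.52.

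Tcrg-V7, at chr13:19178024-19178492 on the plus strand, is known as the segment of intraepithelial gamma-delta T cells of the intestine. Its level was 1.04, 1.01 and 3.09 CPM in CD8 beta+ libraries and 8.88, 5.45 and 2.50 CPM in DN NK1.1+ libraries. It was the one member whose groups overlapped, since DN NK1.1+ library 3 lay under CD8 beta+ library 3. The log2 fold change of 1.71 (SE 0.591) was not called, with an edgeR adjusted p of 0.0732. The call depended on the setting. It was made by DESeq2 (adjusted p = 0.0414), without the filter on low counts (0.0221), without CD8 beta+ library 3 (0.0182, log2 fold change 2.43) and without DN NK1.1+ library 3 (0.0291, log2 fold change 2.06). The remaining leave-outs moved it away from the threshold, with adjusted p of 0.243 without CD8 beta+ library 1 or 2, 0.370 without DN NK1.1+ library 1 (log2 fold change 1.21) and 0.162 without DN NK1.1+ library 2. DN NK1.1+ library 3, the lowest of its group for Tcrg-V7, had the highest summed level of 8 markers of luminal epithelium, at 1166 CPM. That sum was 208 and 554 CPM in the other DN NK1.1+ libraries and 376 to 602 CPM in CD8 beta+ libraries. Of the 6 luminal markers tested 1 was higher in DN NK1.1+ libraries, Epcam, and the part of epithelial RNA in the Tcrg-V7 level was not tested.

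The remaining gamma V segments were rare. Tcrg-V3 had 3, 29 and 8 counts in CD8 beta+ libraries and 16, 50 and 28 in DN NK1.1+ libraries, with overlap. Tcrg-V5, the segment of the dendritic epidermal T cells of skin, had 0 to 6 counts in each library. Tcrg-V6, the segment of gamma-delta T cells of the uterus and other mucosa, had 1, 15 and 14 counts in CD8 beta+ libraries and 8, 9 and 3 in DN NK1.1+ libraries.

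The make-up of the gamma transcripts was described by the share of each gene in the summed counts of its class. Tcrg-C2 took 70.4%, 65.0% and 69.2% of the constant counts in CD8 beta+ libraries and 46.4%, 44.2% and 46.9% in DN NK1.1+ libraries. Its share was thus lower in every DN NK1.1+ library, and the exact binomial intervals (Clopper-Pearson, 95%) of single libraries reached down to 62.7% in the first group and up to 48.4% in the second. The mean went from 68.2% ± 2.83 to 45.8% ± 1.46 (SD, n = 3 each). Such intervals cover counting error only.

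The shares of Tcrg-C1 and Tcrg-C4 went the other way. The Tcrg-C1 share was 22.1%, 23.3% and 19.0% in CD8 beta+ libraries and 34.2%, 31.9% and 30.9% in DN NK1.1+ libraries. The Tcrg-C4 share was 6.53%, 10.4% and 11.1% in CD8 beta+ libraries and 18.9%, 22.6% and 21.4% in DN NK1.1+ libraries. Both were higher in every DN NK1.1+ library, by 10.8 and 11.6 percentage points in the mean. Tcrg-C3 took 0.954% ± 0.291 and 0.905% ± 0.384 (SD, n = 3 each), with overlap. The shares of Tcrg-C1, Tcrg-C2 and Tcrg-C3 rest on how reads were divided among near-identical genes, while that of Tcrg-C4 against the rest does not.

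Among the V segments, Trgv2 took most of the counts in every library. Its share was 92.0%, 84.7% and 85.0% in CD8 beta+ libraries and 70.8%, 70.1% and 74.7% in DN NK1.1+ libraries, lower in each library of the second group. The Tcrg-V4 share was 3.50%, 4.68% and 5.19% against 16.1%, 16.3% and 15.1%, and the Tcrg-V1 share 1.25%, 3.79% and 1.59% against 6.62%, 7.02% and 6.49%. Both were higher in every DN NK1.1+ library. The Tcrg-V7 share overlapped, at 2.63% ± 1.49 and 3.46% ± 1.77 (SD, n = 3 each), as did those of Tcrg-V3, Tcrg-V5 and Tcrg-V6. Of the 11 shares, 6 did not overlap between the groups, each with the smallest possible exact two-sided permutation p of 0.1 and an adjusted p of 0.183 over the 11. No share therefore passed a threshold of 0.05 in this design.

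**Figure D3:**
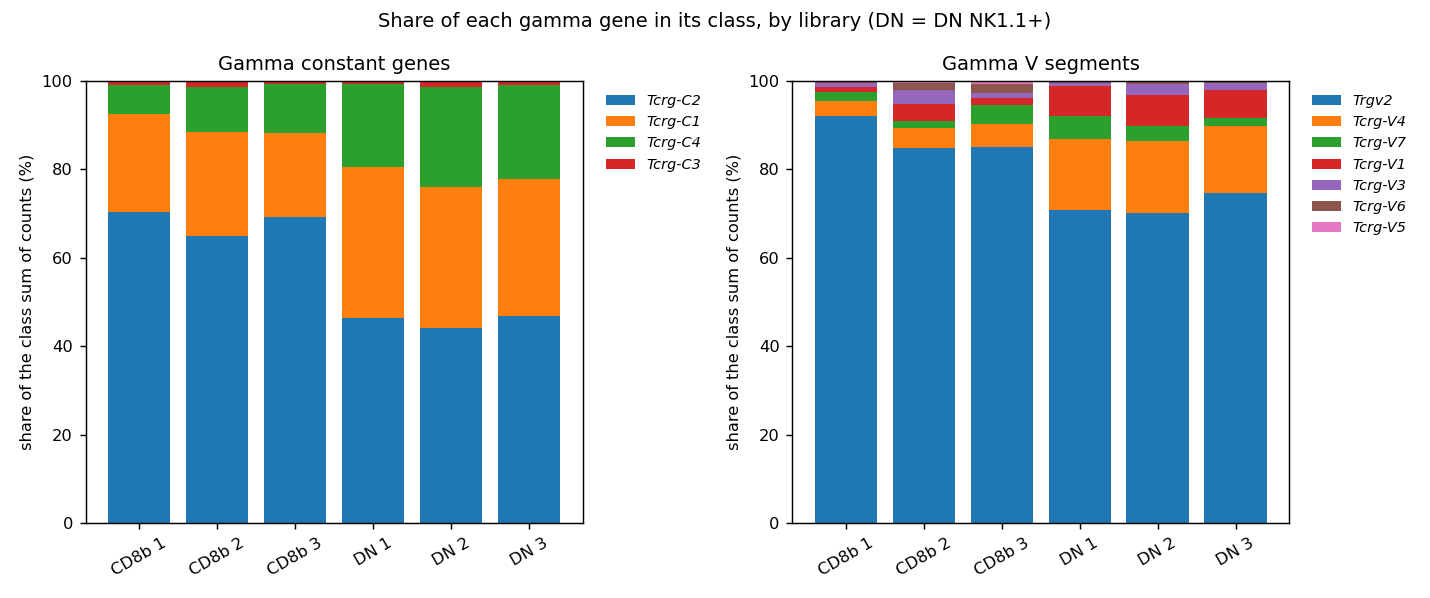
Stacked bars give, for each library, the share (%) of each gamma constant gene in the summed constant counts (left) and of each gamma V segment in the summed V counts (right). Tcrg-C2 and Trgv2 form the largest block in every library, and both blocks are smaller in the 3 DN NK1.1+ libraries, at 44.2% to 46.9% and 70.1% to 74.7%.

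In the annotation, each V segment was grouped with the nearest constant gene downstream on its own strand. Tcrg-V4, Tcrg-V5, Tcrg-V6 and Tcrg-V7 precede Tcrg-C1, Tcrg-V3 precedes Tcrg-C3, Tcrg-V1 lies 4104 bases before Tcrg-C4, and Trgv2 lies 29022 bases before Tcrg-C2. The summed level of V and C genes was 32.9 ± 3.72 and 146 ± 14.9 CPM in the Tcrg-C1 unit, a 4.44-fold higher mean in DN NK1.1+ libraries. In the Tcrg-C2 unit it was 142 ± 17.7 and 276 ± 9.86 CPM (1.95-fold), and in the Tcrg-C4 unit 13.5 ± 4.68 and 84.9 ± 6.96 CPM (6.29-fold). The Tcrg-C3 unit stayed rare, at 2.30 ± 1.16 and 5.78 ± 2.86 CPM with overlap (SD, n = 3 each throughout). The groups did not overlap in the other 3 units. The Tcrg-C2 unit held 74.5% ± 2.54 of all gamma V and C level in CD8 beta+ libraries and 53.8% ± 1.47 in DN NK1.1+ libraries, and the Tcrg-C1 unit 17.3% ± 0.630 and 28.5% ± 1.69. The Tcrg-C4 unit held 6.98% ± 1.79 and 16.6% ± 1.43.

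**Figure D4:**
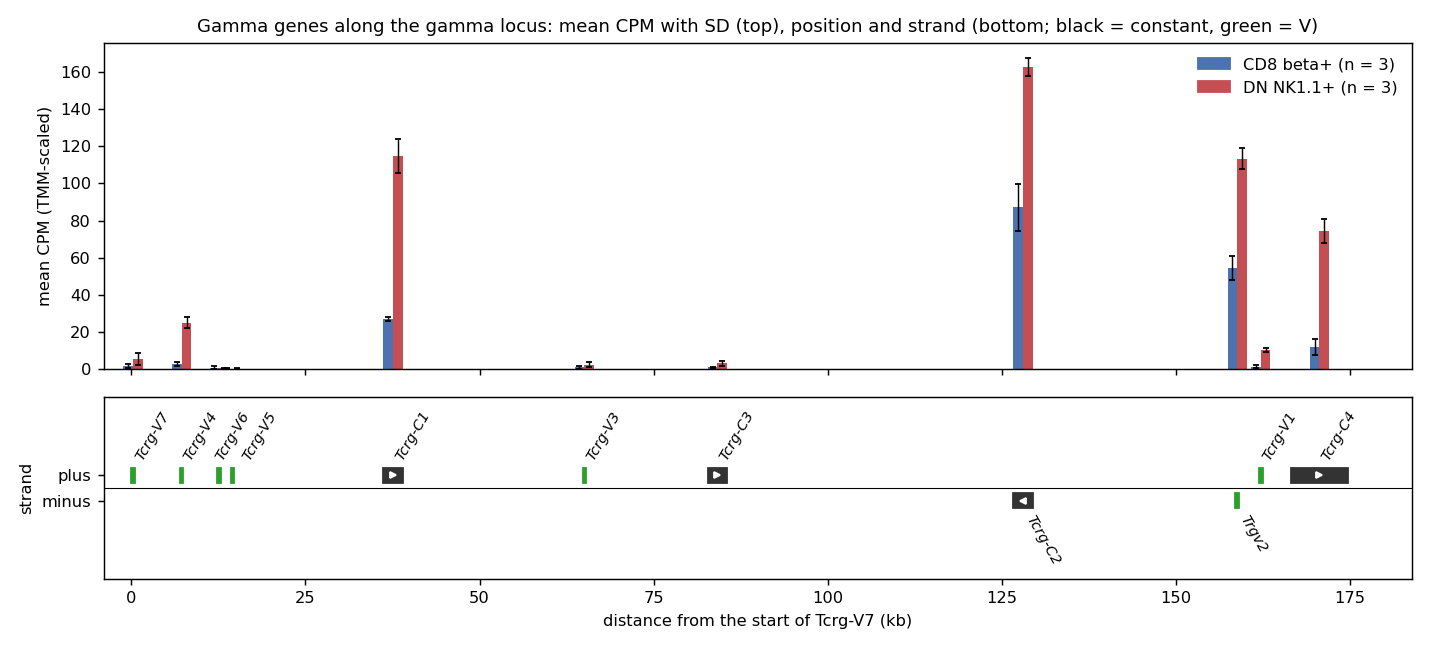
The upper panel gives the mean CPM with SD (n = 3) of each gamma gene at its distance in kb from the start of Tcrg-V7, and the lower panel its extent and strand, with constant genes in black and V segments in green. The highest bars are Tcrg-C2, Tcrg-C1 and Trgv2 in DN NK1.1+ libraries, at 163, 115 and 113 CPM, and Trgv2 lies on the strand of Tcrg-C2 although it is closer to Tcrg-C4.

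To compare genes with one another, levels were divided by exon length. In DN NK1.1+ libraries the order of mean CPM per kb was Trgv2 (231), Tcrg-C2 (178), Tcrg-C1 (124), Tcrg-C4 (75.5), Tcrg-V4 (58.8), Tcrg-V1 (28.4), Trdc (22.9), Tcrg-V7 (15.2), Tcrg-C3 (4.95) and Trdv4 (3.93). The first 6 were each apart from the next in every library, except that Tcrg-V1 and Trdc overlapped, as did all neighbours after them. In CD8 beta+ libraries Trgv2 (111 CPM per kb) and Tcrg-C2 (95.4) overlapped at the top, Tcrg-C1 (29.4) was apart, and all neighbours from Tcrg-C4 (12.3) down to Trdc (1.82) overlapped. The place of Trdc depends on its annotated length: over 3865 bases it had 22.9 CPM per kb in DN NK1.1+ libraries, and over the 1105 exon bases within the gene ends of RefSeq it had 79.9, above Tcrg-V4 at 59.8. With those shorter exons Trgv2 (324) and Tcrg-C2 (323) overlapped in DN NK1.1+ libraries. These lengths were chosen after seeing the data.

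Within a unit, the ratio of V level to C level per kb overlapped between the groups. It was 0.481 ± 0.231 and 0.609 ± 0.0758 in the Tcrg-C1 unit, 1.17 ± 0.131 and 1.30 ± 0.0470 in the Tcrg-C2 unit and 0.310 ± 0.186 and 0.378 ± 0.0476 in the Tcrg-C4 unit (SD, n = 3 each, CD8 beta+ first). In the rare Tcrg-C3 unit it was 1.57 ± 0.930 and 1.41 ± 0.194, and over all gamma genes 0.951 ± 0.108 and 0.895 ± 0.0502. The mean was thus higher in DN NK1.1+ libraries in 3 units and lower in the Tcrg-C3 unit and over all. Exact two-sided permutation tests gave p of 0.5, 0.3, 0.6, 0.8 and 0.4 in this order. A p above the threshold does not show that the ratios are equal.

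The alpha-beta constant genes, given for contrast, went the other way. Trac was 649 ± 52.5 CPM in CD8 beta+ and 241 ± 12.9 CPM in DN NK1.1+ libraries (SD, n = 3 each; log2 fold change -1.43, edgeR adjusted p = 7.89e-08), and Trbc1 and Trbc2 also fell. The level of Trdc per kb over that of Trac per kb was 0.00226, 0.00224 and 0.00349 in CD8 beta+ libraries and 0.0804, 0.104 and 0.0819 in DN NK1.1+ libraries. The summed gamma constant level per kb over that of Trbc1 and Trbc2 was 0.196, 0.212 and 0.265 against 1.14, 1.03 and 0.921. Both ratios were higher in every DN NK1.1+ library. Their size depends on the exon lengths: within the RefSeq gene ends the mean was 0.00922 and 0.308 for Trdc over Trac and 0.297 and 1.35 for gamma over beta constant genes (CD8 beta+ first), and the groups were again apart. Of the CD3 genes, Cd3d, Cd3e and Cd247 fell (log2 fold changes -0.96, -0.55 and -0.92). Cd3g did not pass the test (edgeR adjusted p = 0.501).

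A list of 38 genes known from gamma-delta T cell development and function was counted beside the receptor genes. Of the 22 that passed the filter, 2 rose and 5 fell in DN NK1.1+ against CD8 beta+ libraries, where 7.84% and 5.99% of all tested genes did so, and 15 were not called. Among the 5 that fell, Cd163l1 and 5830411N06Rik passed the filter through the CD8 beta+ libraries alone, so their fall is no separate support. Another 2 genes of the list, not called, passed it through the DN NK1.1+ libraries alone. The median log2 fold change was -0.0566. The counts were 4 and 6 with a replicate block and 4 and 7 without the filter on low counts. Zbtb16, a factor of innate-like T cells, was not called (log2 fold change 2.64, adjusted p = 0.201), but was with the block (4.42e-04) and without the filter (4.65e-04). Tbx21, a factor of interferon-gamma-producing lymphocytes, had an adjusted p of 0.0572 and was called in 6 of the 14 alternatives. Maf, a transcription factor of interleukin-17-producing gamma-delta T cells, rose from 10.7 ± 4.02 to 24.7 ± 4.54 CPM (SD, n = 3 each; log2 fold change 1.20, edgeR adjusted p = 0.00526). Gata3, a factor of T cell and innate lymphocyte development, rose from 77.6 ± 3.92 to 107 ± 17.1 CPM (edgeR adjusted p = 0.0190). The Gata3 call was lost without any one of the CD8 beta+ libraries or without DN NK1.1+ library 2, where adjusted p was 0.0517 to 0.142.

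Among the genes of that list that fell were the pair of scavenger receptors Cd163l1 and 5830411N06Rik, which in mouse are known from interleukin-17-producing gamma-delta T cells. Cd163l1 had 8.58, 8.96 and 1.24 CPM in CD8 beta+ libraries and 0, 0.251 and 0.228 CPM in DN NK1.1+ libraries, and 5830411N06Rik had 6.24, 8.96 and 2.06 CPM against 0, 0.503 and 0 CPM. CD8 beta+ library 3 was the lowest of its group for both. Both passed the filter through the CD8 beta+ libraries alone, so the filter favoured a higher level there. Their edgeR adjusted p was 0.00177 and 0.00692, and the Cd163l1 call was lost with limma-voom (0.145). Tcf7, a factor of naive and early T cells, fell from 297 ± 70.9 to 121 ± 11.4 CPM (SD, n = 3 each; log2 fold change -1.29, edgeR adjusted p = 4.97e-04). The related factor Lef1 was at 159 ± 48.7 CPM in CD8 beta+ and 51.9 ± 4.99 CPM in DN NK1.1+ libraries and fell too (log2 fold change -1.62, edgeR adjusted p = 0.00288). The fifth gene that fell was Cd27. Il17a and Il4 had 0 counts in all libraries, as did the butyrophilin-like genes Btnl1 and Btnl6 and Skint1, which are known from epithelia that hold gamma-delta T cells.

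Outside the receptor genes, the protein-coding genes whose pattern over the 6 libraries was most like that of Trdc were Itgam, Fam184a, Nrgn, Pld1 and Angpt1. Likeness was the root mean square distance between mean-centred log2(CPM + 0.5) values, and 11174 genes were compared. Itgam, an integrin of myeloid and NK cells, had a distance of 0.0915, with 9.36, 7.73 and 10.2 CPM in CD8 beta+ libraries and 99.7, 121 and 102 CPM in DN NK1.1+ libraries. The others lay at distances of 0.127 to 0.154 but at low levels. Nrgn and Angpt1 had 0 CPM in every CD8 beta+ library and means of 5.61 and 5.58 CPM in DN NK1.1+ libraries. Fam184a and Pld1 had means of 0.403 and 0.727 CPM against 10.5 and 15.7 CPM. Only genes that passed the filter on low counts were compared. Nrgn, Angpt1, Fam184a and Pld1 passed it through the DN NK1.1+ libraries alone, which favoured a pattern like that of Trdc. Near 0 the added 0.5 CPM shrinks differences. Without it these genes were less like Trdc, with edgeR log2 fold changes of 4.44 to 8.99 against 3.65. Among the 10 receptor genes the closest pair was Tcrg-C2 and Trgv2, at a distance of 0.122, followed by Tcrg-C4 and Tcrg-V4 at 0.214. The points of these distances are the same 6 libraries, so they share depth and sort.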

How the data were processed

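For 6 bulk libraries the authors deposited 1 matrix of expected counts per gene, not scaled between libraries, a unit inferred from the values themselves. The submitters' processing notes name the build mm10 and Cell Ranger 7.1.0. For these libraries the aligner, counter, annotation and strand setting were not given in the sources used here. Ensembl IDs stand under the heading for symbols and symbols under the heading for IDs. Per the labels' protocols, cells were sorted on a Sony MA900, RNA was isolated with the RNeasy Micro kit and libraries were made with Tecan's Solo kit.

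Expected counts were rounded and tested with edgeR 4.0.16 (R 4.3.3; robust quasi-likelihood fit with the group alone, TMM, filter with minimum count 10 and minimum total 15), with Benjamini-Hochberg adjustment over all 13171 genes tested and a threshold of 0.05. Alternatives were other scalings, DESeq2 1.42.0, limma-voom (limma 3.58.1), other filters, a replicate block and leaving out each library. The fit was tested on simulated data. CPM uses TMM factors of 0.965 to 1.03. The chi-square between replicates of a group, divided by its degrees of freedom, was 9.07 to 23.5, so none was a copy of another. Sums, shares and ratios were compared by exact permutation. Coordinates, exon lengths and sequences come from GENCODE M21, of the same build. RefSeq gene ends (GRCm38.p6) gave the shorter lengths.

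The named genes were all 10 members, the sort genes, alpha-beta constant and CD3 genes, other gamma and delta segments, up to 4 called genes each way of the gamma-delta list with a mean of 5 CPM or more in the higher group, and the 5 genes most like Trdc. Cd27, Il17a, Il4, Btnl1, Btnl6, Skint1, Zbtb16, Tbx21, Ncr1, Khdc1a and Epcam were named after their values were seen. So were Eomes, Itgax, Csf1r and the markers of mast cells and basophils. The members and lists were chosen with earlier results of these data known. V segments were to be grouped with the nearest constant gene. Because Trgv2 lies 7391 bases from Tcrg-C4 on the other strand, the nearest one downstream on the same strand was used instead.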

Additional observations from a re-analysis of the deposited data

How the results depend on the processing

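The number of receptor genes called higher was 7 to 9 under all 14 alternatives and the number called lower was 0. It was 9 with DESeq2, without the filter on low counts, without CD8 beta+ replicate 3 and without DN NK1.1+ replicate 3, where Tcrg-V7 was added (log2 fold changes 1.71, 1.70, 2.43 and 2.06), and 7 with a minimum count of 30, which removed Trdv4 and Tcrg-C3 from the test. Leaving out each library gave 8 to 9 genes higher, 0 lower, a log2 ratio of 1.43 to 1.59 for the summed gamma constant genes and of 1.21 to 1.44 for the summed gamma V segments. Of 138 alternative fold changes of single members, 134 kept their direction and their side of the threshold, and the other 4 were those of Tcrg-V7. The share differences moved by less than the spread between replicates in 76 of 77 alternatives. The exception was Tcrg-V4, whose difference was 11.4 percentage points by counts and 12.2 by counts per kb. Levels per kb moved with the shorter RefSeq exons, chosen after seeing the data: V over C was then 0.277 and 0.349 in the Tcrg-C1 unit, 0.903 and 1.002 in the Tcrg-C2 unit and 0.194 and 0.236 in the Tcrg-C4 unit (CD8 beta+ first). Over all genes, 1033 were higher and 789 lower, and 681 and 499 without CD8 beta+ replicate 1.

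The groups share replicate numbers, but same-numbered libraries deviated together with r of -0.0500, 0.189 and 0.256 over genes, so the numbers were not taken to pair the samples. DN NK1.1+ libraries 2 and 3 correlated best with their own number, and library 1 did not. With a replicate block 8 receptor genes were called higher and 0 lower, and over all genes 1137 and 945.

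With 3 libraries a group, the exact test of sums and shares cannot pass 0.05. Trdv4, Tcrg-C3 and Tcrg-V7 rest on few counts per library, and at this depth Trdv4 in CD8 beta+ cells lies under 0.0960 CPM.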

Other observations

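Some V segments of the alpha locus can also be used in delta chains. Of 10 such segments in the matrix, chosen after seeing the data, the summed level was 12.4 ± 1.72 CPM in CD8 beta+ and 14.1 ± 1.18 CPM in DN NK1.1+ libraries (SD, n = 3 each), with overlap (two-sided exact permutation p = 0.3). Trav15d-1-dv6d-1 stood apart from that sum. It had 3, 16 and 4 counts in CD8 beta+ libraries and 85, 56 and 85 in DN NK1.1+ libraries, or 0.653 ± 0.436 and 6.16 ± 1.34 CPM. It passed the filter on low counts through the DN NK1.1+ libraries alone and was singled out after its values were seen, so no test is given. Its neighbour in name Trav15d-2-dv6d-2 had 0, 7 and 0 counts against 7, 18 and 23 and was not tested. Trav16d-dv11 had 11, 19 and 7 counts against 4, 0 and 2, lower in every DN NK1.1+ library, and was not tested either. As these segments serve both chains, their counts do not say which chain was made.

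Of 5 markers of mast cells and basophils, 2 passed the filter on low counts, Cma1 and Mcpt4. Both did so through the DN NK1.1+ libraries alone, so the filter favoured a higher level there. The summed level was 0.260 to 0.506 CPM in CD8 beta+ and 14.5 to 20.1 CPM in DN NK1.1+ libraries, and its part in the receptor gene levels was not tested. Cma1 had 2, 0 and 0 counts in CD8 beta+ libraries and 146, 159 and 155 in DN NK1.1+ libraries. Mcpt4 had 0, 7 and 0 against 44, 22 and 28. Cpa3 had 0, 0 and 3 against 43, 20 and 8, without overlap, and was not tested. Ms4a2, which encodes a chain of the mast cell IgE receptor, had 0 counts in 5 of the 6 libraries and 2 in DN NK1.1+ library 2. Mcpt8, a basophil protease, had 5 counts in DN NK1.1+ library 2 and 0 in the other libraries.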
